A study of Mus musculus with 12 samples.

Results

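A set of 157 genes was strongly higher in Cherry+ than in Cherry- lung cells at both day 5 and day 10 after the injection of 4T1 cells, out of 32958 rows in the deposited table and 15842 genes tested. The rule took every gene whose mean over the 3 Cherry+ libraries exceeded the mean over the 3 Cherry- libraries by at least 1.75 log2 units (3.36-fold) at each day, whose lowest Cherry+ library lay above its highest Cherry- library at each day, and whose highest group mean reached at least 7 on the deposited log2 scale. The members were thus chosen by their measured Cherry differences in these 12 libraries. Those differences describe the set, and no test of them counts as support. All 157 members passed the filter on low values, and they made up 0.991% of the genes tested.

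The cells came from the lungs of female Balb/c mice of 6 to 10 weeks that had received a labelling 4T1 line by the intravenous route. 4T1 cells derive from a mouse mammary carcinoma and seed metastases in the lung. The 12 libraries were made from CD45-Ter119- cells, a gate that removes leukocytes and red blood cells, and fall into 4 groups of 3, namely Cherry- and Cherry+ cells at day 5 and Cherry- and Cherry+ cells at day 10. All mice carried tumour cells, so the Cherry- groups are not tumour-free lung, and the labels do not say how many animals stand behind a library.

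As background, tumour cells of such a line secrete a red fluorescent protein that enters the host cells next to them, so that Cherry+ cells mark the surroundings of a metastasis and Cherry- cells the remaining lung. The cells of the lung that lack CD45 are mainly endothelial, epithelial, mesenchymal and mesothelial cells. Tumour cells also lack CD45, and the labels do not say whether the sort removed them in another way. In such bulk libraries, a change in the share of cells of one type and a change in RNA per cell cannot be told apart.

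The table names its rows only by identifiers of the UCSC known-gene series. None of these identifiers occurs in the gene name tables used here (0 matches), so no member could be given a symbol, a function, a position or a sequence. The markers of lung epithelium, endothelium, fibroblasts, leukocytes and dividing cells could not be looked up for the same reason, and the label of the sorted cells was not checked against them. Levels are compared within a gene across libraries and not between genes as abundances, since the values are not known to be scaled to gene length.

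The rule itself set the members apart from the rest of the table by the size of their Cherry difference. At day 5 the difference of the 157 members ran from 1.78 to 5.17 log2 units, with a median of 2.72 (6.58-fold) and a median standard error of 0.42. At day 10 it ran from 1.75 to 3.53, with a median of 2.21 (4.62-fold). The median over all 15842 genes was -0.04 at day 5 and -0.05 at day 10. At day 5, 137 members differed by at least 2 log2 units and 54 by at least 3, whereas at day 10 these numbers were 97 and 14. Limma, with Benjamini-Hochberg adjustment, called 157 members higher at day 5 and 155 at day 10, where 18.9% and 17.4% of all genes were called higher. The rule used these contrasts, so nothing is read from the counts.

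**Figure D1:**
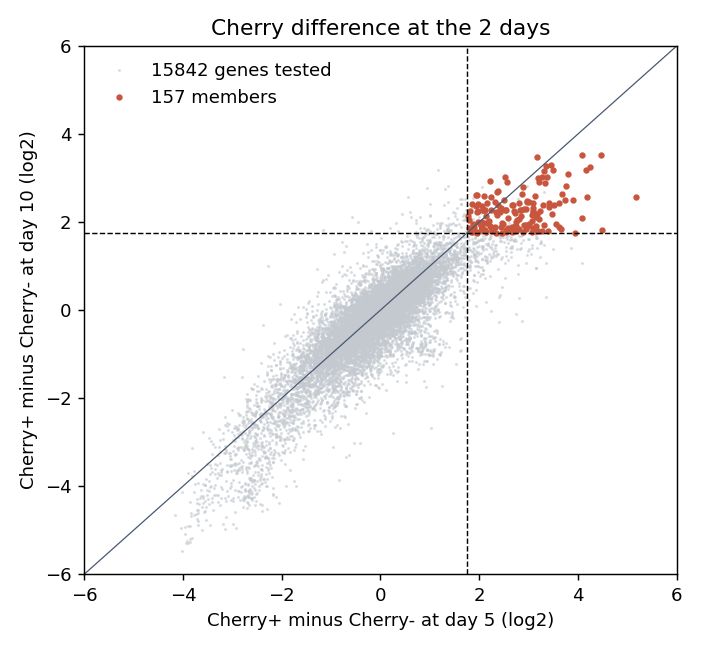
Cherry+ minus Cherry- difference in log2 units at day 5 (x axis) and at day 10 (y axis) for the 15842 genes tested (grey) and the 157 members (red). Dashed lines mark the minimum of 1.75 and the solid line equal differences. Of the members, 124 lie below the solid line.

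The edge of the set was not a natural break. There were 34 members whose smaller difference lay within 0.1 log2 units above the minimum, and 33 other genes met the conditions on overlap and level with a smaller difference within 0.1 below it. The nearest values on either side were 1.7528 and 1.7489. A further 12 genes failed only the condition on overlap and 11 failed only that on level. With the day 5 conditions alone 343 genes qualified, of which the members were 45.8%, and with the day 10 conditions alone 219 qualified, of which they were 71.7%.

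The levels of the members covered a wide range in each group. Their median group mean on the deposited log2 scale was 6.44 in Cherry- and 9.24 in Cherry+ cells of day 5. It was 7.51 in Cherry- and 9.73 in Cherry+ cells of day 10. In day 5 Cherry- cells 26 members had a mean under 5, against 5 members in day 10 Cherry- cells and 0 in either Cherry+ group. A mean of at least 11 was reached by 29 members in Cherry+ cells at day 5 and by 42 at day 10, against 6 and 9 in Cherry- cells. The member with the highest values had group means of 14.36 (Cherry-) and 16.32 (Cherry+) at day 5, and of 14.69 (Cherry-) and 16.92 (Cherry+) at day 10.

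**Figure D2:**
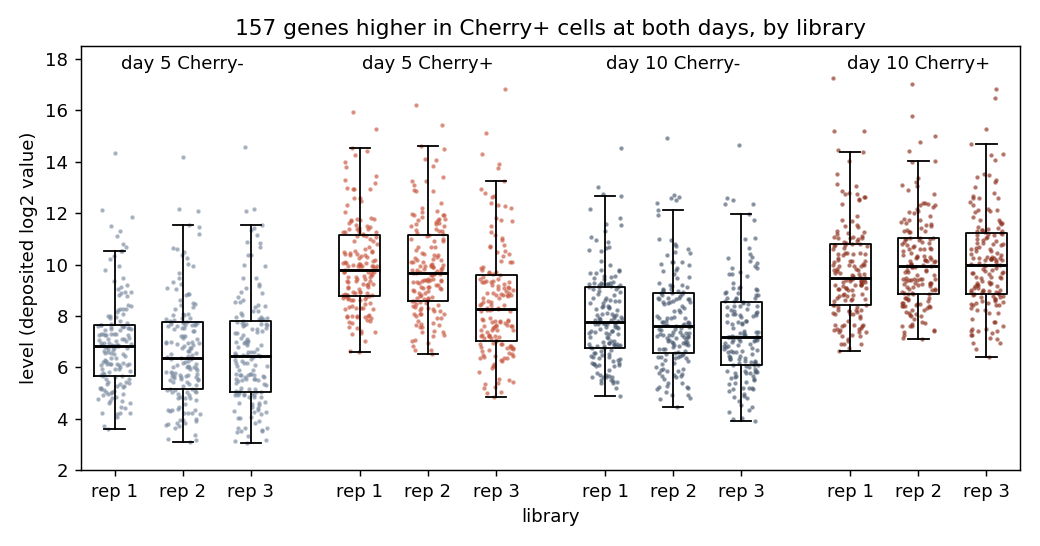
Level of the 157 members in each of the 12 libraries, as deposited log2 values. Each point is 1 member, boxes show the quartiles with the median as a thick line, and whiskers reach the most distant point within 1.5 box lengths. The day 5 Cherry+ replicate 3 library has a median of 8.27, below 9.78 and 9.67 in the other 2 libraries of its group.

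The 2 members with the largest smaller-of-the-days difference were uc008vnd.2 and uc007bnf.2. The level of uc008vnd.2 was 6.94, 6.51 and 6.79 in the day 5 Cherry- libraries and 11.38, 11.74 and 9.35 in the day 5 Cherry+ libraries, in the order of their replicate numbers. At day 10 it was 9.28, 8.46 and 8.38 in Cherry- and 11.31, 12.18 and 13.21 in Cherry+ libraries. The Cherry groups did not overlap at either day, as the rule required. The day 5 Cherry+ replicate 3 library was the lowest of the 6 Cherry+ libraries and lay only just above the highest day 10 Cherry- library. The differences were 4.08 ± 0.59 (SE) at day 5, or 16.9-fold, and 3.53 ± 0.59 (SE) at day 10, or 11.5-fold.

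Between the days, the 3 day 10 Cherry- libraries of uc008vnd.2 all lay above the 3 day 5 Cherry- libraries, while the Cherry+ groups overlapped. The change from day 5 to day 10 was 1.96 ± 0.59 (SE) in Cherry- cells (limma adjusted p = 0.262) and 1.41 ± 0.59 (SE) in Cherry+ cells (adjusted p = 0.195), so neither passed the threshold of 0.05. The Cherry- change passed in 4 of 19 alternative fits, with adjusted p between 0.000635 and 0.876.

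The level of uc007bnf.2 was 5.53, 4.23 and 4.28 in the day 5 Cherry- libraries and 10.07, 10.11 and 7.24 in the day 5 Cherry+ libraries. At day 10 it was 6.39, 5.66 and 5.83 in Cherry- and 8.81, 9.44 and 10.17 in Cherry+ libraries. Again the day 5 Cherry+ replicate 3 library was the lowest Cherry+ library, and the day 10 Cherry- libraries all lay above those of day 5. The differences were 4.46 ± 0.69 (SE) at day 5, or 22.0-fold, and 3.51 ± 0.69 (SE) at day 10, or 11.4-fold. From day 5 to day 10 the change was 1.28 ± 0.69 (SE) in Cherry- cells (limma adjusted p = 0.745, between 0.0057 and 1 in the alternative fits) and 0.33 ± 0.69 (SE) in Cherry+ cells (adjusted p = 0.851). Without day 5 Cherry+ replicate 3 the Cherry+ change was -0.62.

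**Figure D3:**
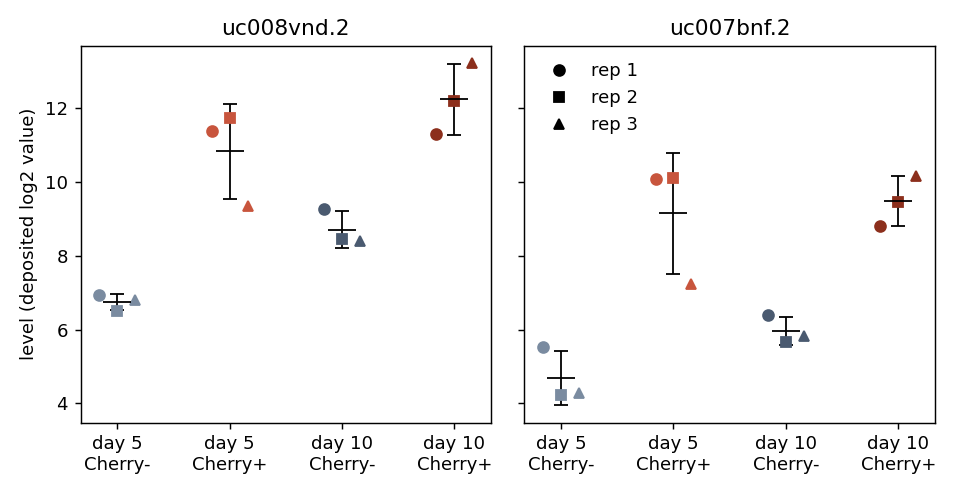
Level of uc008vnd.2 and uc007bnf.2 in the 12 libraries, as deposited log2 values by group. Symbols mark replicate numbers, horizontal bars the group mean and error bars the SD (n = 3). In both genes the day 5 Cherry+ replicate 3 library is the lowest of the 6 Cherry+ libraries.

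In 3 of the 4 groups most members had the same library as their lowest, and in day 5 Cherry- cells they did not. The median level of the 157 members was 6.83, 6.36 and 6.45 in the day 5 Cherry- libraries and 9.78, 9.67 and 8.27 in the day 5 Cherry+ libraries, in replicate order. It was 7.77, 7.61 and 7.17 in the day 10 Cherry- libraries and 9.49, 9.92 and 10.00 in the day 10 Cherry+ libraries. Day 5 Cherry+ replicate 3 thus stood apart from the other libraries of its group, with members a median of -1.02 log2 units from their group mean. Over all genes tested the median deviation of that library was 0.03. That median was near 0 in every library (-0.035 to 0.0275), so it does not show whether the shift was confined to the members.

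The same library was the lowest of its group in 134 of 157 members (85.4%), against 38.8% of all genes tested. It was the highest in 13 members (8.28%), against 45.2% of all genes, so it often lay at an end of its group outside the members too. Day 10 Cherry- replicate 3 was the lowest of its group in 124 members (79.0%, all genes 40.0%), and day 10 Cherry+ replicate 1 in 120 (76.4%, all genes 36.3%). In day 5 Cherry- cells no library was the lowest in more than 66 members. The SD among the 3 day 5 Cherry+ libraries was at least 1 log2 unit in 62 members (39.5%), against 1.92% of all genes, with a median of 0.90 for members and 0.26 for all genes. In the other 3 groups the median SD of the members was 0.31, 0.37 and 0.41, against 0.18, 0.16 and 0.25 for all genes.

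The genes that met the mirrored rule, 587 genes strongly lower in Cherry+ cells, are given beside the members, first for replicate 3 of the 2 Cherry+ groups. Their median deviation was 0.33 log2 units in day 5 Cherry+ replicate 3, where the members' was -1.02. It was -0.49 in day 10 Cherry+ replicate 3, where the members' was 0.22. Opposite signs of the 2 lists were not particular to these libraries. Only in day 10 Cherry- replicate 1 (members 0.29, mirrored genes 0.04) and day 10 Cherry+ replicate 2 (0.06 and 0.06) were both above 0. In every other library the signs were opposite, as in day 10 Cherry+ replicate 1 (-0.33 and 0.46) and day 5 Cherry+ replicate 2 (0.45 and -0.29). The difference between the lists was not tested.

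Not every member followed this order of libraries. In 23 members another day 5 Cherry+ library was the lowest, a split made after the values were seen and given without a test. These 23 had a median group mean at day 5 of 8.07 (Cherry-) and 10.94 (Cherry+), against 6.15 and 9.002 for the other 134. Their libraries were ordered differently at day 10 too. Day 10 Cherry+ replicate 3 was the lowest of its group in 17 of the 23 and in 17 of the 134. Day 10 Cherry- replicate 2 was the highest of its group in 20 of the 23 and in 22 of the 134. Their Cherry differences were of similar size, with medians of 2.51 at day 5 and 2.25 at day 10, against 2.73 and 2.15 in the 134.

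**Figure D4:**
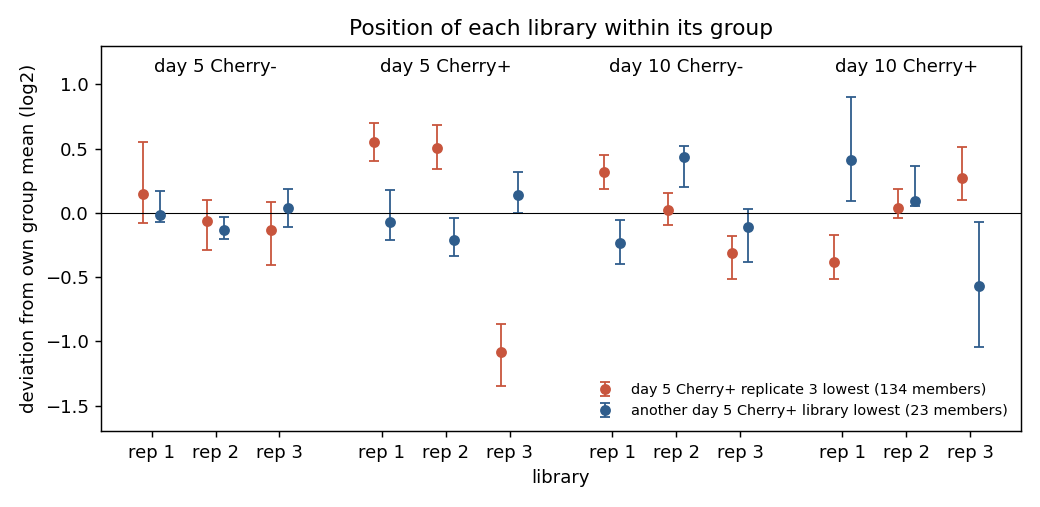
Deviation of each library from its own group mean in log2 units, for the 134 members whose lowest day 5 Cherry+ library was replicate 3 (red) and the 23 members for which it was another (blue). Points are medians over members and bars the quartiles. Day 5 Cherry+ replicate 3 lies at -1.09 in the 134 by the choice of these members, and day 10 Cherry+ replicate 3 lies at 0.27 in the 134 and at -0.57 in the 23.

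Same-numbered Cherry- and Cherry+ libraries of 1 day carry the same letter in their source names, and the labels do not say what the letter stands for. The Cherry difference was therefore also taken within each of the 6 letters. All 157 members were higher in the Cherry+ library of every pair, which the condition on overlap fixes. The median difference within pairs was 3.00, 3.21 and 1.95 log2 units at day 5 and 1.57, 2.20 and 2.64 at day 10, in replicate order. The pairs of 1 day thus differed from each other by more than the medians of the 2 days did. The number of members with a difference of at least 1.75 within the pair was 146, 154 and 96 at day 5 and 56, 135 and 144 at day 10.

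The change from day 5 to day 10 was not itself a condition of the rule, although the rule used the same libraries. In 9 members the condition on level was met only at day 10, which fixed a rise in Cherry+ cells. In 1 member it was met only at day 5, which fixed a fall there. In Cherry- cells the members were higher at day 10 by a median of 1.03 log2 units (2.04-fold), where the median over all genes tested was 0.00. The change was above 0 in 155 of 157 members, against 49.2% of all genes by sign alone, and at least 1 log2 unit in 81 members (51.6%), against 2.65% of all genes. The 3 day 10 Cherry- libraries all lay above the 3 day 5 Cherry- libraries in 108 members (68.8%), against 12% of all genes, and the reverse was seen in 0 members (8.85% of all genes).

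After adjustment over all genes, 1 member passed in the Cherry- comparison (0.637%, against 0.366% of all genes called higher). Its change was 2.06 ± 0.35 (SE), with a limma adjusted p of 0.0325. At an unadjusted p under 0.05 there were 91 members, all of them higher at day 10 (58.0%, against 5.85% of all genes). The number of members that passed differed widely between fits. Without day 5 Cherry+ replicate 3, which enters this comparison only through the spread, 37 members passed (23.6%, against 1.53% of all genes), and with the 6 Cherry- libraries fitted alone 48 passed (30.6%, against 1.92%). Library quality weights, which also change the means, gave 122 members (77.7%, against 7.09%). The count was 0 without day 5 Cherry- replicate 2 or 3 (21 and 7 of all genes, higher or lower). It was 0 without day 10 Cherry- replicate 1 or 2 as well (1 and 1 of all genes). Without day 10 Cherry+ replicate 2 it was also 0. Over all single libraries left out, 1 to 245 of all genes were called. The median change moved less, between 0.90 and 1.21 over 19 alternatives.

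In Cherry+ cells the members were higher at day 10 by a median of 0.46 log2 units (1.37-fold), where the median over all genes was -0.02. This value rested on 1 library. Without day 5 Cherry+ replicate 3 the median change was -0.01, with 77 members above and 80 below 0, against 144 above and 13 below with all libraries (91.7% above, where all genes gave 48.1%). The Cherry+ libraries of the 2 days were separated in 15 members with day 10 the higher (9.55%, against 9.25% of all genes), a share near the background.

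In Cherry+ cells limma called 7 members higher at day 10 than at day 5 after adjustment (4.46%, against 1.35% of all genes). It called 0 members lower (3.04% of all genes), with 1 member lower at p under 0.05 before adjustment (0.637%, where all genes gave 12.7%). The rises of the 7 lay between 0.76 and 1.94 log2 units, with limma adjusted p between 0.0273 and 0.0423. In all 7 the day 10 Cherry+ libraries lay above those of day 5, which a call on this contrast favours. In 6 of the 7 the Cherry- libraries of the 2 days were separated in the same direction, as they were in 68.8% of all members and 12% of all genes. The count dropped to 0 when day 5 Cherry+ replicate 3 (0.164% of all genes) was left out. It was also 0 without day 10 Cherry+ replicate 2 or 3 (0 and 395 of all genes, higher or lower). Without day 5 Cherry+ replicate 1 it was 1 (207 of all genes), and without day 5 Cherry+ replicate 2 it was 4 (464). Without day 10 Cherry+ replicate 1 there were 10 members, 9 higher and 1 lower (1655 of all genes). Leaving out a Cherry- library, which enters only through the spread, gave 4, 1 and 2 at day 5 and 1, 1 and 4 at day 10, in replicate order. Over all genes these fits called 484, 348 and 376, and 320, 336 and 524. The count was 0 under library quality weights and 0 when only the Cherry+ groups were fitted (0 of all genes in each). The replicate number as a block gave 1 (196 of all genes, against 695 without the block). That block joined same-numbered libraries of the 2 days, which carry different letters in their source names.

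**Figure D5:**
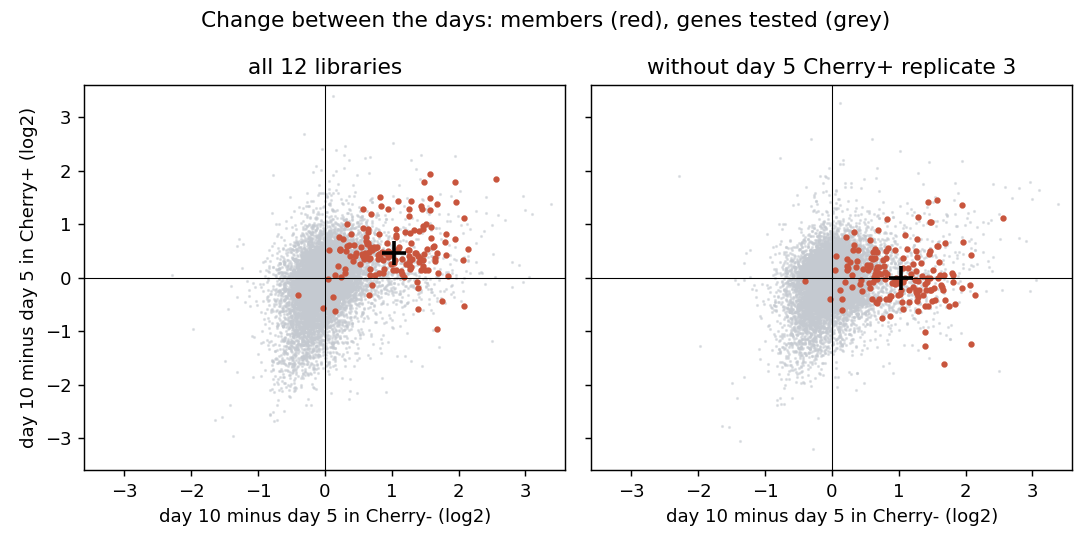
Change from day 5 to day 10 in Cherry- cells (x axis) and in Cherry+ cells (y axis), in log2 units, for the 157 members (red) and all genes tested (grey), with all libraries and without day 5 Cherry+ replicate 3. Crosses mark the members' medians, which lie at 1.03 and 0.46 with all libraries and at 1.03 and -0.01 without that library.

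The rule places Cherry- below Cherry+ at each day, so only the other places in the order of the 4 group means were free. In 144 of 157 (91.7%) the order from low to high was day 5 Cherry-, day 10 Cherry-, day 5 Cherry+ and day 10 Cherry+. In 11 members both Cherry+ means changed places, and in 2 the Cherry- means did so as well. Day 10 Cherry- cells did not reach the mean of day 5 Cherry+ cells in any member. The minimum difference of the rule at day 5 favours this, so nothing is read from it. The place of the Cherry+ groups relative to each other was not stable, since it turned on day 5 Cherry+ replicate 3 as given above.

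The difference between the days was formed from the 2 Cherry differences that the rule used, both held to the same minimum in the same libraries, so the counts and tests of it are a description of selected genes. The Cherry difference was smaller at day 10 than at day 5 in 124 members and larger in 33 (21.0%, against 45.1% of all genes by sign alone). The difference between the days had a median of -0.44 log2 units over the members and -0.05 over all genes. It reached -1 or lower in 33 members (21.0%, against 5.41% of all genes) and 1 or higher in 0 (1.46% of all genes). Tested as an interaction in limma, 0 of 157 members passed, as did 0 of all genes, and the smallest adjusted p among members was 0.24. Before adjustment 16 members had a limma p under 0.05 in either direction (10.2%), the same share as among all genes (10.2%). By direction, 15 were lower (9.55%, against 7.2% of all genes) and 1 was higher (0.637%, against 2.98%).

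This result too depended on the libraries. Without day 5 Cherry+ replicate 3 the median over the members was -0.98, and 10 members had a smaller difference at day 10 by the test (6.37%, against 0.656% of all genes). A further fit left out 3 libraries, namely day 5 Cherry- replicate 1 and replicate 3 of both Cherry+ groups. The median was then -1.25 and 49 members passed, all with a smaller difference at day 10 (31.2%, against 3.02% of all genes). These 3 were a fixed choice, not set by a stated criterion. Day 5 Cherry- replicate 1 was the lowest of its group in 43.6% and the highest in 33.1% of all genes. Day 10 Cherry- replicate 3, which was kept, was so in 40.0% and 39.3%. Day 5 Cherry+ replicate 3 is the library in which most members were lowest, so leaving it out raises their day 5 difference by construction, from a median of 2.72 to 3.16.

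The change between the days was also taken by the deposited value of the member. The classes rest on the day 5 Cherry+ mean, which the Cherry+ change subtracts. A larger Cherry+ rise in the lowest class is thus favoured by the choice. The 9 members with a day 5 Cherry+ mean under 7 met the condition on level only at day 10. The classes are a description, and no trend over them was tested. Among the 32 members with a day 5 Cherry+ mean under 8, the median change between the days was 1.08 log2 units in Cherry- and 0.62 in Cherry+ cells. Among the 29 members at 11 or more it was 0.69 and 0.35. In the 3 classes between, with 39, 34 and 23 members, the Cherry- median lay between 1.03 and 1.16 and the Cherry+ median between 0.35 and 0.51.

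There were 13 members with a lower mean in Cherry+ cells at day 10 than at day 5. They were picked for that order, so their negative change in Cherry+ cells and smaller day 10 difference largely restate the choice, and they are given without support from a test. They had a median Cherry difference of 3.22 at day 5 and 1.95 at day 10, and a median change of -0.37 between the days in Cherry+ and 0.70 in Cherry- cells. None of the 13 was called changed in Cherry+ cells, where limma called 695 of all genes, higher or lower. At an unadjusted p under 0.05 there was 1 of the 13, against 20.9% of all genes in either direction. Day 10 Cherry+ replicate 3 was the lowest library of its group in 12 of them, against 34 of all 157 members.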

How the data were processed

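Total RNA of CD45-Ter119- lung cells was amplified and sequenced, per the labels' protocols. The authors deposited 1 table of normalised values on a log2 scale. RSEM 1.2.29, Bowtie2, mm10 and DESeq2 1.12.4 appear in the submitters' processing notes, with no role or order, and the transform behind the values is not stated there. Of 32958 rows, 7764 were at 0 throughout. Depth is unknown, so no counting interval was computed, and a shrunken scale would understate the folds of low genes.

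Genes with at least 3 of 12 libraries at 3.32 (10 on the linear scale) or more were tested. One limma model (version 3.58.1, R 4.3.3) held the 4 group means, with a variance prior that followed the mean level and 8 residual degrees of freedom. Tests were two-sided, with Benjamini-Hochberg adjustment over all 15842 genes and a threshold of 0.05. The procedure was tested on simulated data. The labels do not tie libraries to animals, so p-values reflect the spread between libraries, part of which may be technical. Libraries of a group differed by a root mean square of 0.327 to 0.788 log2 units, so none was a copy of another. Alternatives changed the filter, the scaling, the variance model, the pairing and the libraries used.

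The members, the lists and the tests were chosen with earlier results of these data known. Without symbols, the genes named are the 2 members with the largest smaller-of-the-days difference, and the marker lists could not be used. Figures were drawn with matplotlib 3.10.9.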

Additional observations from a re-analysis of the deposited data

How the results depend on the processing

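The set held 243 genes at a minimum of 1.5 log2 units and 87 at 2, and 114 to 185 with 1 library left out. Members called in the Cherry comparisons numbered 155 to 157 at day 5 and 146 to 157 at day 10 over 19 alternatives each, which the rule largely fixed, so no stability is read from them. Numbers in brackets after these counts are calls over all genes, higher or lower. For the change in Cherry+ cells, 7 members were called as reported (695). Quality weights gave 0 members (0) and a fit of the compared groups alone gave 0 (0). Testing all rows gave 1 (276), the replicate block gave 1 (196), and single libraries left out gave 0 to 10 (0 to 1655). The 10 were 9 higher and 1 lower. Dropping the 3 libraries named above gave 5, as 4 higher and 1 lower (1299). In Cherry+ cells the median change of the members reversed from 0.46 to -0.0101 under quality weights. It reversed to -0.118 when the same 3 libraries were dropped, and ranged from -0.0082 to 0.70 over single libraries left out. For uc007bnf.2 it reversed to -0.66 and -0.96 in the same 2 fits, and ranged from -0.62 to 0.81 over single libraries. For the change in Cherry- cells, 1 member was called as reported (58). Testing all rows gave 0 (31), quantile normalisation 5 (110), cyclic loess 3 (95) and quality weights 122 (1552). The compared groups alone gave 48 (321) and dropping the 3 libraries 72 (431). Single libraries left out gave 0 to 37 (1 to 245). For the interaction, 0 members were called as reported (0) and 0 to 10 over single libraries (0 to 161). Quality weights gave 3 members. The calls over all genes reached up to 603 among the alternatives, so nothing is read from these 3. Dropping the 3 libraries gave 49, or 31.2%, against 3.02% of all genes called lower. Over all genes, the 695 called in Cherry+ cells ranged from 0 to 1655, the 58 in Cherry- cells from 1 to 1552 and the 0 of the interaction from 0 to 603. Dropping the filter adds genes to the adjustment. For the remaining shifts the cause was not tested. The iteration behind the quality weights ended short of its tolerance.

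Same-numbered libraries deviated together at day 5 (correlations of 0.254, 0.161 and 0.228 across genes) but not throughout at day 10 (-0.142, 0.572 and 0.107). For the Cherry comparisons and the interaction the replicate block paired same-numbered libraries within a day. It gave 157 members at day 5 and 156 at day 10, counts that the rule largely fixed, and 0 for the interaction. For the changes between the days the block was the replicate number alone, which joins libraries of different letters. It gave 1 member in Cherry+ and 1 in Cherry- cells, where 196 and 51 of all genes were called, higher or lower.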
